A study of Homo sapiens with 15 samples.

Results

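The genes described here encode the tricarboxylic acid (TCA) cycle of the mitochondrial matrix and the steps by which pyruvate and glutamate enter it. The list held 38 genes, chosen by name for these roles and found on the array by the RefSeq accession of the probe, out of 19483 gene symbols matched in that way. They were covered by 50 of the 42405 non-control probes, and 36 of the 38 genes had a brightest probe that passed the filter on dim probes, among 19577 probes tested in all.

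RNA came from PE/CA-PJ41 cells, an established line from a human oral squamous cell carcinoma. NCE cells were labelled as carrying the empty vector, and CYGB+ cells carried the pCMV6-Neo plasmid with human cytoglobin cDNA, which is driven by a viral promoter. Cytoglobin is a haem protein of the globin family. Stable clones were picked under G418, and cells of both groups were kept for 24 h in serum- and glutamine-supplemented medium before lysis, with no drug treatment named for the array samples. The CYGB+ cells were a single high-expressing clone (LST421). The study's text instead calls NCE the parent line without transfection, a disagreement with the label that was not resolved. If so, the plasmid and G418 selection cannot be told apart from cytoglobin in any difference below. Each group had 3 biological replicates, from RNA extracted on separate occasions, and these were hybridised 3 times each for NCE and 2 times each for CYGB+ (15 arrays). The labels do not state separate cultures, so p-values measure only the spread between these samples. A single clone also cannot be told apart from the expression of cytoglobin.

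The single cytoglobin probe did not separate the groups. Its normalised log2 signal was 11.85, 12.15 and 11.96 in NCE replicates 1 to 3 and 11.38, 12.44 and 11.97 in the CYGB+ replicates (difference -0.05, limma adjusted p = 0.9055). The groups overlapped. The probe was well above background on all 9 NCE arrays, although the study describes NCE as cells that do not express cytoglobin. The source of this signal in NCE was not tested. The files give no probe sequence, so whether this probe lies within the plasmid's cDNA is not known here. Every direction below rests on the labels alone. All samples were labelled Cy3, and the green (Cy3) channel was used. The study's methods instead name cyanine 5 for control RNA and cyanine 3 for cytoglobin RNA, and this disagreement was not resolved. If the methods hold, the green values of the NCE arrays may not measure NCE RNA, and the differences below would not compare NCE with CYGB+ RNA. Between 53.8% and 61.3% of green spots were well above background on an array. All 8 squamous epithelial markers (KRT5, KRT14, KRT6A, KRT17, TP63, DSG3, SFN and EPCAM) were above background on all arrays, with a summed linear level of 66500 to 75400 in NCE and 68800 to 89000 in CYGB+. KRT6A was called lower in CYGB+ (-0.46, adjusted p = 0.0458), but not with slide as a block (-0.05, adjusted p = 0.9717). The other 7 were not called, although the groups did not overlap for KRT14 (0.76), EPCAM (-0.47) and DSG3 (-0.27). Of the fibroblast markers, COL3A1, PDGFRB and DCN were above background on no array. COL1A1 was not called (0.10). COL1A2 was lower in CYGB+ (-1.32, adjusted p = 0.0027), also with slide as a block (-1.55, adjusted p = 2.2e-05), and the summed linear level of the 5 fibroblast probes was 491 to 538 in NCE and 356 to 385 in CYGB+. None of the 3 endothelial markers and 1 of the 4 leukocyte markers (CD14) passed the filter. The part of these markers in the results below was not tested.

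Slide and group were largely confounded. Slide 1 held 8 NCE arrays, while slide 2 held all 6 CYGB+ arrays and 1 repeat of NCE replicate 1, and the 2 scan times split the arrays in the same way. Each called difference of the genes below is therefore given with slide as a block, in a fit over the 15 arrays. That fit sets the 1 NCE array on slide 2 against all 8 NCE arrays on slide 1. Arrays of 1 replicate were treated as correlated (0.193), so differences between NCE replicates can also enter the slide term. One array stood apart from the others, the first repeat of CYGB+ replicate 1, whose deviations from the probe medians had an SD of 0.771 on the log2 scale against 0.194 to 0.447 on the other arrays. Over deviations from the probe means, every array had a higher mean correlation with arrays of its own group than with those of the other. The own-group mean was near 0 for some arrays. It was -0.0532 for the slide 2 array of NCE replicate 1, -0.0218 for the second repeat of NCE replicate 3 and 0.00229 for the array that stood apart. Because group and slide nearly coincide, these correlations cannot tell them apart.

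Pyruvate crosses the inner mitochondrial membrane through the mitochondrial pyruvate carrier and is converted to acetyl-CoA by the pyruvate dehydrogenase complex. Pyruvate dehydrogenase kinases phosphorylate and inhibit that complex, and pyruvate dehydrogenase phosphatases restore its activity. Citrate synthase joins acetyl-CoA to oxaloacetate, and the cycle then returns to oxaloacetate through isocitrate, 2-oxoglutarate, succinate, fumarate and malate. Glutamate dehydrogenase and the aminotransferases supply 2-oxoglutarate from glutamate, and succinate dehydrogenase is also complex II of the respiratory chain.

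Most of these genes did not differ detectably between NCE and CYGB+ cells. With limma and Benjamini-Hochberg adjustment over all probes tested, 1 of the 36 tested genes was higher in CYGB+ (MPC1) and 4 were lower (IDH2, SDHC, PDK1 and PDP1), while 31 were not called. Over all probes tested 12.1% were called, 6.12% higher and 5.97% lower, so the gene list held calls at a share near that of the whole array. The median log2 difference was -0.04 over the 36 genes and 0.01 over all probes. Differences ranged from -0.86 to 0.54, with 15 positive and 21 negative, and 3 genes (IDH2, PDK1 and PDP1) were lower by more than 1.5-fold. The share of all probes past that size was not counted, so this number has nothing to be read against. The replicates of the 2 groups did not overlap for 10 genes, against 34.9% of all probes. With slide as a block 3 genes were called, all lower (IDH2, SDHC and PDK1), where 3.62% of all probes were called and 2.23% called lower. By its brightest probe none of the 5 genes changed direction. For SDHC and MPC1, however, another probe of the gene had the opposite sign in the main fit (0.69 and -0.13). On slide 2 alone no gene was called, where 0.0255% of all probes were. That comparison had 1 NCE array, assumed to vary like the CYGB+ replicates, so its adjusted p-values say little and its differences are given as values.

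**Figure D1:**
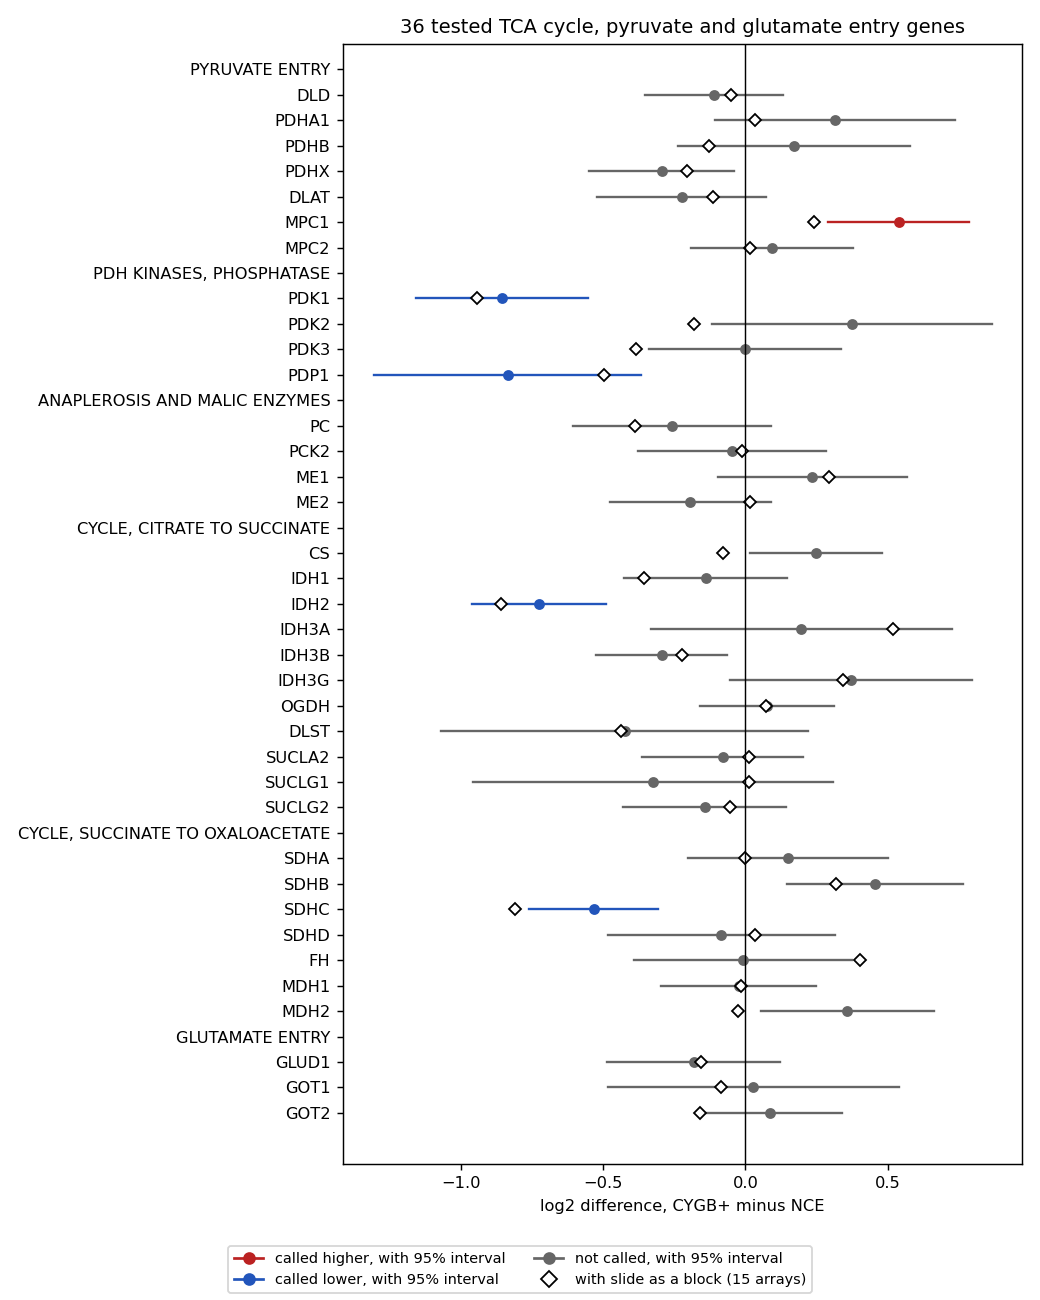
Log2 difference (CYGB+ minus NCE, horizontal axis) of the brightest probe of each of the 36 tested genes, grouped by role. Circles and lines are the limma difference of 3 against 3 biological replicates with its 95% interval, coloured by call, and open diamonds are the estimate with slide as a block over 15 arrays. IDH2, PDK1, SDHC and PDP1 lie below 0 and MPC1 above it. The diamonds of CS, MDH2, PDHB, PDK2, GOT1, GOT2, FH, SUCLG1, SUCLA2, SDHD and ME2 lie across 0 from their circles. That of SDHA lies almost on 0. None of these genes with displaced diamonds was called.

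The 2 genes at the outer ends of the list were PDK1, with the most negative difference, and MPC1, with the most positive one and the only gene called higher. Promoter windows of both are shown because they are the regulatory sequences next to those differences. RefSeq windows (GRCh38.p14) were read as the 250 bases before an annotated start, and 35 of the 38 genes had at least 1. Capitals mark the core of the hypoxia response element, searched as ACGTG or GCGTG on both strands, a motif that PDK1 is well known to carry. The MPC1 window is chr6:166382941-166383190 on the minus strand, and the PDK1 window, chr2:172555840-172556089 on the plus strand, belongs to a start 717 bases inside the gene.
MPC1: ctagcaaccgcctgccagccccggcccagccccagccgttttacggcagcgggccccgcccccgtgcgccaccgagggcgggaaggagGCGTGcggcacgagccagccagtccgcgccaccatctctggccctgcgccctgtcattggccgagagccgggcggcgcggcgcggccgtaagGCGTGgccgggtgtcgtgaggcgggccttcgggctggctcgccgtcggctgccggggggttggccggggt
PDK1: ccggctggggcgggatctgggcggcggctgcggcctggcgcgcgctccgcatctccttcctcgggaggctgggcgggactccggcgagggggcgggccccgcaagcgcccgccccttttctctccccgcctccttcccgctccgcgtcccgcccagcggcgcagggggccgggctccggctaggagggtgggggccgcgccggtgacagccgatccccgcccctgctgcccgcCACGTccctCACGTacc
Each of these windows held 2 matches. A separate PDK1 window at the outermost start held none, and the IDH2 window, for a start 1847 bases inside the gene, held 1. The core was present in 43.2% of all 35116 windows and in 28 of the 48 windows of the listed genes (58.3%). Windows of 1 gene can overlap, and a match of letters is a description, not a bound site.

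Among the 7 genes of pyruvate entry, 1 was called higher and none lower, with a median difference of 0.09. MPC1 encodes a subunit of the mitochondrial pyruvate carrier. Its normalised log2 signal was 10.47, 10.47 and 10.52 in NCE and 11.17, 10.91 and 11.01 in CYGB+. MPC1 was 1.45-fold higher in CYGB+ (log2 difference 0.54, SE 0.11, adjusted p = 0.0215), and the replicates of the groups did not overlap. This call was lost with slide as a block (0.24, adjusted p = 0.7457), and the slide 2 array of NCE replicate 1 read 10.75 where its slide 1 arrays read 10.32 and 10.35. The second repeat of NCE replicate 3, on slide 1, read 10.74. The call was also lost when NCE replicate 1 (0.53, adjusted p = 0.064), NCE replicate 2 (0.53, adjusted p = 0.0954), NCE replicate 3 (0.56, adjusted p = 0.0826) or CYGB+ replicate 3 (0.55, adjusted p = 0.0526) was left out. The other MPC1 probe (A_33_P3242873) gave -0.13 (adjusted p = 0.5407), with 7.75, 7.94 and 7.88 in NCE and 7.499, 7.86 and 7.83 in CYGB+.

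MPC2, the partner subunit of the carrier, was not called (0.09, 95% interval -0.19 to 0.38). The catalytic E1 subunits of pyruvate dehydrogenase were not called either, with PDHA1 at 0.31 (-0.11 to 0.74) and PDHB at 0.17 (-0.24 to 0.58). With slide as a block PDHA1 gave 0.03 and PDHB gave -0.13. The E3-binding component PDHX gave 9.72, 9.95 and 9.89 in NCE and 9.61, 9.45 and 9.61 in CYGB+ (-0.29, adjusted p = 0.1228). Its replicates did not overlap, and without the CYGB+ array that stood apart PDHX was called lower (-0.37, adjusted p = 0.0391). That fit was chosen after the data were seen and called 20.7% of all probes. With slide as a block PDHX was not called (-0.21, adjusted p = 0.6917). The acetyltransferase DLAT gave -0.22 and the dihydrolipoyl dehydrogenase DLD gave -0.11, neither of them called. DLD also serves the 2-oxoglutarate dehydrogenase complex.

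The kinases and phosphatase of pyruvate dehydrogenase held the widest differences of the list. Of 5 genes, 4 were tested and 2 of them were lower in CYGB+, PDK1 and PDP1, which encode enzymes of opposite action on the complex. PDK1 read 8.20, 8.01 and 8.43 in NCE and 7.31, 7.33 and 7.45 in CYGB+, so every CYGB+ replicate lay below every NCE replicate. It was 1.81-fold lower (log2 difference -0.86, SE 0.13, adjusted p = 0.0094). With slide as a block PDK1 remained lower (-0.94, adjusted p = 0.0092), and on slide 2 alone the difference was -0.93.

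PDP1, the catalytic subunit of a pyruvate dehydrogenase phosphatase, read 11.51, 12.20 and 12.25 in NCE and 11.05, 11.08 and 11.31 in CYGB+. It was 1.79-fold lower in CYGB+ (-0.84, SE 0.20, adjusted p = 0.037). The groups did not overlap, but NCE replicate 1 lay closer to the CYGB+ replicates than to the other NCE replicates. All 3 arrays of NCE replicate 1, on both slides, read 11.48 to 11.56. Its slide 2 array differed from the mean of its slide 1 arrays by -0.04. The PDP1 call was lost with slide as a block (-0.50, adjusted p = 0.3873), and when any replicate other than NCE replicate 1 was left out (adjusted p = 0.0609 to 0.14, against 0.0184 without NCE replicate 1).

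PDK2 was not called and its groups overlapped, at 8.58, 7.86 and 8.13 in NCE and 8.78, 8.67 and 8.25 in CYGB+ (0.37, adjusted p = 0.2818). Its estimate had the other sign with slide as a block (-0.18). PDK3 differed by less than 0.01 in size (95% interval -0.34 to 0.33). PDK4 was not well above background on any array, so no difference is given for it.

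**Figure D2:**
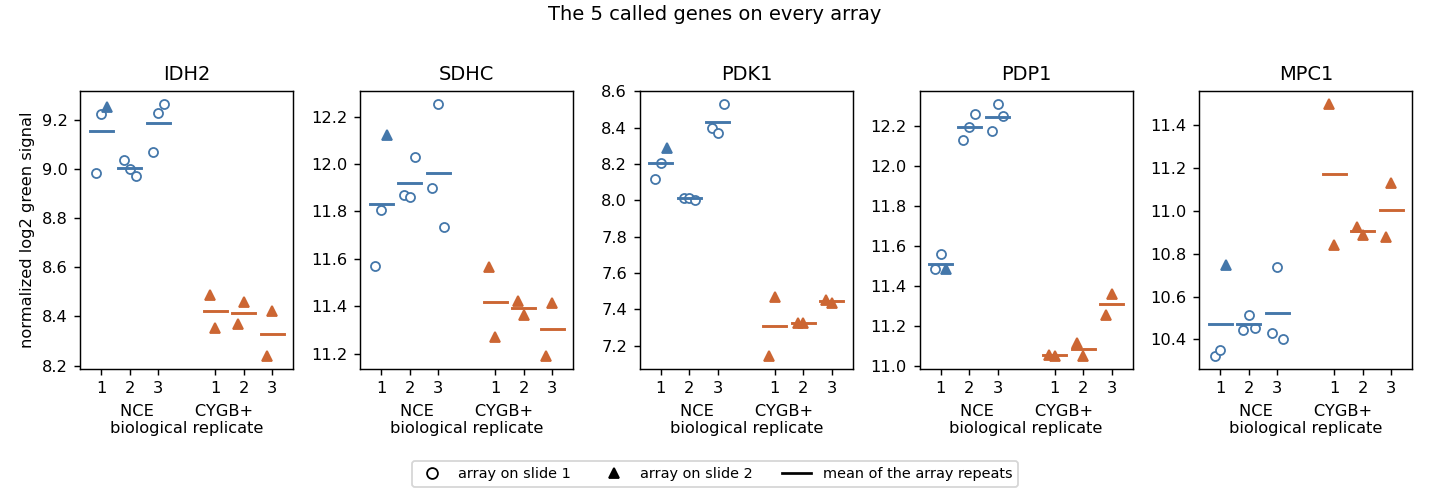
Normalised log2 green signal (vertical axis, a separate scale for each gene) of IDH2, SDHC, PDK1, PDP1 and MPC1 on each of the 15 arrays, by biological replicate of NCE (blue) and CYGB+ (orange). Open circles are arrays on slide 1, filled triangles arrays on slide 2, and horizontal lines the means of the array repeats. For IDH2, PDK1 and SDHC the NCE array on slide 2 sits with the other NCE arrays. For MPC1 that array reads 10.75, below the CYGB+ arrays and just above the second repeat of NCE replicate 3 on slide 1 (10.74).

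None of the 4 tested genes of anaplerosis and the malic enzymes was called. Pyruvate carboxylase (PC), which makes oxaloacetate from pyruvate, gave -0.26 (95% interval -0.61 to 0.09). The mitochondrial phosphoenolpyruvate carboxykinase PCK2 gave -0.05 (-0.38 to 0.28). The cytosolic malic enzyme ME1 gave 0.23 (-0.10 to 0.57) and the mitochondrial ME2 gave -0.19 (-0.48 to 0.09). The ME3 probe was well above background on 5 of 9 NCE and 5 of 6 CYGB+ arrays and was not tested.

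From citrate to succinate, 1 of 11 genes was called, IDH2. It encodes the mitochondrial NADP-dependent isocitrate dehydrogenase, which makes 2-oxoglutarate and NADPH. IDH2 read 9.15, 9.003 and 9.19 in NCE and 8.42, 8.41 and 8.33 in CYGB+, with no overlap. It was 1.65-fold lower in CYGB+ (-0.73, SE 0.10, adjusted p = 0.0073), remained so with slide as a block (-0.86, adjusted p = 0.004) and differed by -0.86 on slide 2 alone.

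The cytosolic counterpart IDH1 was not called (-0.14, 95% interval -0.43 to 0.15). The 3 subunits of the NAD-dependent isocitrate dehydrogenase of the cycle were not called and had no common sign. IDH3B was lower in every CYGB+ replicate than in any NCE replicate (10.75, 10.91 and 10.81 against 10.55, 10.47 and 10.56), with a difference of -0.30 (adjusted p = 0.0959). IDH3A gave 0.20 and IDH3G gave 0.37, each with overlapping groups. IDH3A was called higher without the CYGB+ array that stood apart (0.45, adjusted p = 0.0395), in the fit that called 20.7% of all probes. With slide as a block IDH3A was not called (0.52, adjusted p = 0.7959).

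Citrate synthase (CS), which opens the cycle, read 13.22, 13.12 and 13.21 in NCE and 13.47, 13.34 and 13.49 in CYGB+ (0.25, adjusted p = 0.1468). The groups did not overlap, but with slide as a block the difference was -0.08. The 2-oxoglutarate dehydrogenase components OGDH (0.08) and DLST (-0.43) were not called, and the DLST interval was wide (-1.07 to 0.22). The succinyl-CoA synthetase subunits SUCLA2 (-0.08), SUCLG2 (-0.14) and SUCLG1 (-0.33) were not called.

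From succinate to oxaloacetate, 1 of 7 genes was called by its brightest probe. SDHC encodes a membrane anchor of succinate dehydrogenase. Its brightest probe (A_33_P3410724) read 11.83, 11.92 and 11.96 in NCE and 11.42, 11.39 and 11.30 in CYGB+, which did not overlap. This probe was 1.45-fold lower in CYGB+ (-0.53, SE 0.10, adjusted p = 0.0168), also with slide as a block (-0.81, adjusted p = 0.0379). The call was lost without NCE replicate 2 (-0.53, adjusted p = 0.0818), NCE replicate 3 (-0.51, adjusted p = 0.0836) or CYGB+ replicate 3 (-0.50, adjusted p = 0.051). Other background correction or scaling of the signal also lost it (adjusted p = 0.0548 to 0.197), as did the deposited values (adjusted p = 0.139).

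The SDHC probes did not move together. A dimmer probe of the same accession (A_33_P3326682) read 8.37, 8.08 and 8.28 in NCE and 9.23, 8.76 and 8.80 in CYGB+. That probe was 1.61-fold higher in CYGB+ (0.69, SE 0.16, adjusted p = 0.0308), with no overlap, although not with slide as a block (0.53, adjusted p = 0.4417). Leaving out any NCE replicate (adjusted p = 0.0596 to 0.124) or CYGB+ replicate 3 (adjusted p = 0.0526) also lost it. The remaining probe (A_24_P233850) read 8.53, 8.82 and 8.90 in NCE and 8.57, 8.45 and 8.55 in CYGB+, which overlapped (-0.23, 95% interval -0.52 to 0.06). No single direction can therefore be given for SDHC.

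SDHB, the iron-sulphur subunit, had 1 probe, which read 11.55, 11.51 and 11.61 in NCE and 12.28, 11.92 and 11.85 in CYGB+. The groups did not overlap, and the difference of 0.46 (1.37-fold, SE 0.13) missed the threshold (adjusted p = 0.0649). Without the CYGB+ array that stood apart SDHB was called higher (0.31, adjusted p = 0.0323). That fit was chosen after the data were seen and called 20.7% of all probes. With slide as a block SDHB was not called (0.32, adjusted p = 0.7169). None of the 4 probes of SDHA, the flavoprotein subunit, was called, and they gave 0.15, -0.35, -0.05 and 0.19. None of the 3 probes of the other anchor, SDHD, was called, and they gave -0.09, -0.13 and -0.16. SDHA, SDHC and SDHD have processed or duplicated copies in the genome, so their probes may read more than 1 locus. Over the 11 succinate dehydrogenase probes, 1 was higher, 1 was lower and the median difference was -0.09.

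**Figure D3:**
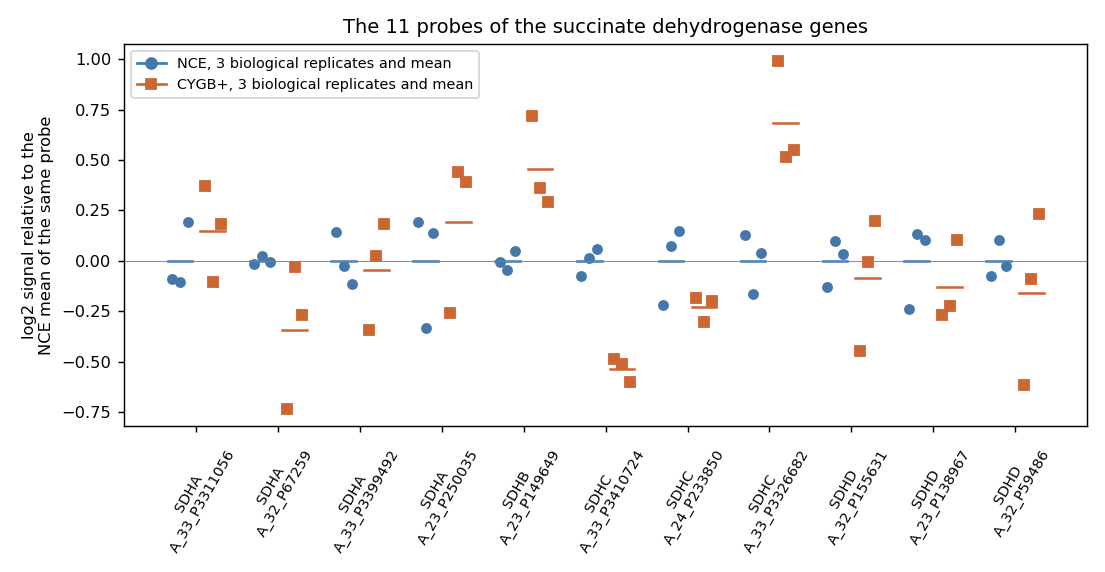
Log2 signal of each of the 11 probes of SDHA, SDHB, SDHC and SDHD (horizontal axis, gene and probe name) relative to the NCE mean of that probe (vertical axis). Circles are the 3 NCE and squares the 3 CYGB+ biological replicates, and short lines are group means. A_33_P3410724 and A_33_P3326682, both probes of SDHC, lie on opposite sides of 0 at -0.53 and 0.69.

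Fumarase (FH) differed by -0.01 (95% interval -0.39 to 0.38). The malate dehydrogenases were not called. Cytosolic MDH1 gave -0.02 (-0.30 to 0.25), while the mitochondrial MDH2 read 12.48, 12.28 and 12.51 in NCE and 12.97, 12.77 and 12.59 in CYGB+ (0.36, adjusted p = 0.1172). The MDH2 groups did not overlap, but with slide as a block the difference was -0.03.

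None of the 3 genes of glutamate entry was called. Glutamate dehydrogenase, GLUD1, gave -0.18 (95% interval -0.49 to 0.12), and its near-identical copy GLUD2 may share its signal. The cytosolic aspartate aminotransferase GOT1 gave 0.03 (-0.49 to 0.54) and the mitochondrial GOT2 gave 0.09 (-0.17 to 0.34).

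Differences between the slides within NCE replicate 1 are given beside the group differences they may touch, and their part in those was not tested. Its slide 2 array read higher than the mean of its slide 1 arrays by 0.41 for MPC1, 0.41 for CS, 0.47 for MDH2 and 0.46 for PDK3. For PDHA1 (0.415), GOT2 (0.37) and PDHB (0.37) it also read higher. For FH (-0.51) and SUCLG1 (-0.52) it read lower. It read higher by 0.43 for SDHC, whose group difference has the opposite sign, and by 0.40 for PDK2. For IDH2 and PDK1 the slide differences were 0.15 and 0.13, also opposite in sign to the group differences. PDP1 had a slide difference of -0.04. These are values of 3 arrays with no test.

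**Figure D4:**
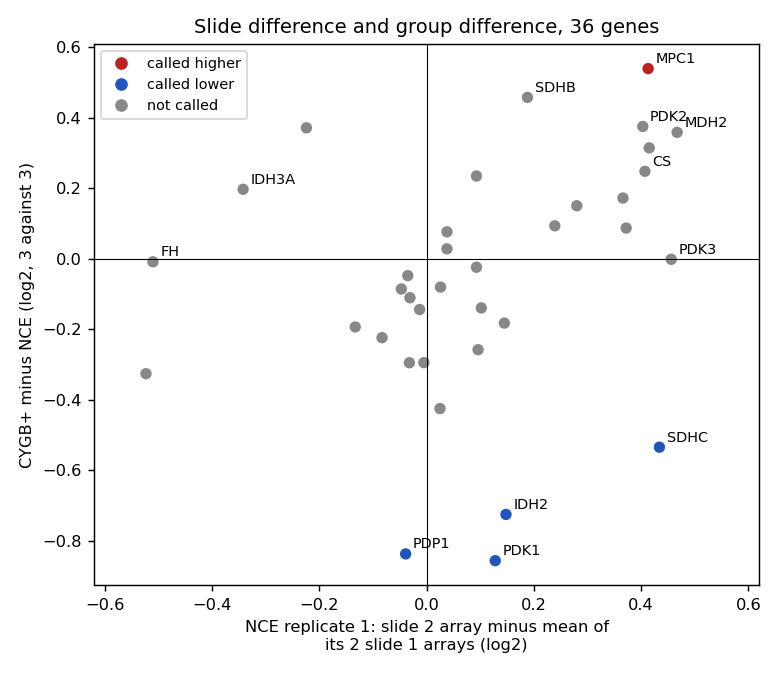
Each point is 1 of the 36 tested genes. The horizontal axis is the slide 2 array of NCE replicate 1 minus the mean of its 2 slide 1 arrays, and the vertical axis is CYGB+ minus NCE over 3 against 3 biological replicates, both as log2 differences, coloured by call. MPC1, CS and MDH2 lie in the upper right, higher on both axes, and SDHC lies in the lower right. PDK1, IDH2 and PDP1 lie low near the vertical line at 0.

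Other genes of the same pathway, outside the list of 38, were counted in the same fit. Of 30 such genes 26 were tested, 2 were higher and 2 lower in CYGB+, with a median difference of -0.006, close to the 6.12% higher and 5.97% lower over all probes. The genes that were higher were the succinate dehydrogenase assembly factor SDHAF3 (0.50, adjusted p = 0.0295) and the 2-oxoglutarate carrier SLC25A11 (0.49, adjusted p = 0.0254). Neither was called with slide as a block (0.35, adjusted p = 0.5603, and 0.38, adjusted p = 0.1867). Cytosolic aconitase ACO1 was lower (-0.60, adjusted p = 0.0236), as was the mitochondrial glutamate carrier SLC25A22, at 11.33, 11.22 and 11.16 in NCE and 10.16, 10.53 and 10.35 in CYGB+ (-0.89, adjusted p = 0.0072). Both remained lower with slide as a block, where 3.62% of all probes were called (-0.66, adjusted p = 0.044, and -1.03, adjusted p = 0.0183).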

How the data were processed

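Agilent SurePrint G3 Human 8 x 60K arrays carried RNA of 3 NCE and 3 CYGB+ biological replicates on 15 arrays. The authors deposited Feature Extraction 10.7.3.1 scanner files (protocol GE2_107_Sep09, grid built on hg19) with intensity values, and a table of quantile-normalised log2 values deposited by the authors, whose column medians ran from -0.161 to 0.183 and whose centring is not given in the sources used here. Agilent's processed signal was made by a two-colour protocol.

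Green median intensities were corrected with normexp (offset 50) against the local background median and quantile-normalised in limma 3.58.1 (R 4.3.3). The design named the mean signal, a column the files given here do not hold, so the median signal was used. Control and outlier-flagged spots were left out, spots were averaged per probe, and array repeats per biological replicate. Of 42405 probes, 19577 well above background on every array of either group were tested (lmFit, eBayes, Benjamini-Hochberg, called at adjusted p under 0.05). A gene's brightest probe was used, and every succinate dehydrogenase probe. Of 27310 probes with RefSeq accessions 93.1% matched a gene symbol. The number of arrays limits the precision. The genes and lists were chosen with earlier results of these data known, and all listed genes are named, those called in full. The red channel, whose RNA the labels do not name, entered no group comparison. Over the non-control spots of an array, its log2 signal correlated with the green one at 0.957 to 0.994 (Pearson). Alternatives covered background correction, scaling, the filter, slide, replicates, test and the deposited table. Code was tested on simulated data. Some genes of the pathway are not reported here.

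Deviations of same-numbered NCE and CYGB+ replicates correlated at 0.221, 0.231 and 0.315, all over 0.1, which met the rule used for treating the numbers as pairs. The fit behind the p-values of the Results was nonetheless unpaired. A paired fit, with a replicate block, is given only as an alternative. Pairs of different numbers ran from -0.518 to 0.306, so the pairing is weak. The labels do not say what a number shares.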

Additional observations from a re-analysis of the deposited data

Results flagged for a closer look

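Single arrays lay far from the rest of their group for some probes. Over 43 probes of the tested genes and 86 comparisons of an extreme array with its group, 19 had a gap to the next array above Dixon's 95% critical value, where chance flags about 5% of groups. Of these, 13 were the first repeat of CYGB+ replicate 1, whose log2 signals were 9.904 for DLST, 8.523 for SUCLG1, 12.715 for SDHB, 8.376 for SDHD (A_32_P155631), 9.722 for FH, 13.843 for PDHA1, 11.332 for PDHB, 8.225 for PDK3, 9.835 for GOT1, 9.763 for SDHA (A_32_P67259), 8.863 for SDHA (A_33_P3399492), 8.268 for SDHA (A_23_P250035) and 9.674 for SDHC (A_33_P3326682). The second repeat of NCE replicate 3 gave 5, with 7.051 for DLD, 9.661 for SUCLG1, 10.375 for GOT1, 11.988 for MPC2 and 9.159 for SDHA (A_33_P3399492). The second repeat of NCE replicate 2 gave 7.592 for SDHA (A_23_P250035). None of IDH2, PDK1, PDP1, MPC1 and the brightest SDHC probe was among them, and without the array of CYGB+ replicate 1 all 5 remained called and IDH3A, SDHB and PDHX were called as well.

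The red channel, which the labels do not describe and no comparison used, held signal on every array. Between 55.62% and 61.38% of its spots were well above background.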

How the results depend on the processing

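Over all probes tested, 2367 were called, 1198 higher and 1169 lower. Calls numbered 1607 (839 and 768) with normexp and 75th percentile scaling, 1951 (1075 and 876) with the processed signal and that scaling, 3140 (1565 and 1575) with a replicate block, 709 (272 and 437) with slide as a block, 5 (3 and 2) within slide 2, where a lone NCE array was assumed to vary like the CYGB+ replicates, 789 (434 and 355) with the methods' t-test after Benjamini-Hochberg adjustment, and 1444 (764 and 680) with the deposited table. The alternatives chosen after seeing the data gave 4622 (2355 and 2267) for an array-level fit with no slide term, and 4051 (2055 and 1996) without the CYGB+ array that stood apart. Leaving out each replicate gave 521 to 2413 (246 to 1267 higher and 255 to 1146 lower).

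Of the listed genes, 1 was higher and 4 lower. With the processed signal, quantile or 75th percentile scaled, 0 were higher and 2 lower (IDH2 and PDK1), as with the deposited table, which held 32 of the tested genes. With normexp and 75th percentile scaling 1 was higher and 3 lower, and SDHC was lost (adjusted p = 0.0548). Without the filter on dim probes the numbers were also 1 and 3, and PDP1 was lost (adjusted p = 0.0947). With slide as a block 0 were higher and 3 lower, within slide 2 0 and 0, with the methods' t-test 0 and 2 (IDH2 and SDHC), with no slide term 3 and 6, without the array that stood apart 3 and 5, and with the mean over all probes of a gene 0 and 3. With a replicate block it was again 1 and 4, the same 5 genes, and no call changed. Leaving out each replicate gave 0 to 1 higher and 2 to 4 lower, with a median difference of -0.11 to -0.011. MPC1 was lost without any 1 of the NCE replicates or CYGB+ replicate 3, PDP1 without NCE replicate 2 or 3 or any CYGB+ replicate, and SDHC without NCE replicate 2 or 3 or CYGB+ replicate 3, whereas IDH2 and PDK1 were called in each. By its brightest probe no called gene changed sign in any of the 18 settings run for it (17 for PDP1, not analysed in the deposited table), while 15 of the 31 genes not called did in at least 1. The cause of these differences was not tested.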
